A study of Homo sapiens with 6 samples.

Results

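Aminoacyl-tRNA synthetases were examined in the human prostate carcinoma line Du145, with or without knockdown of the tumour suppressor gene TSC2. The 35 genes were taken by symbol, with the probe set of highest mean kept for each, out of 18417 genes with a named probe set. They comprised 19 genes of the cytosolic enzymes and 16 of the mitochondrial enzymes, and each of the 35 had a probe set.

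A synthetase joins an amino acid to its matching tRNA at the cost of ATP, and the product is the substrate of the ribosome. Human cells keep separate sets of these enzymes for the cytosol and for mitochondria, nearly all encoded by different nuclear genes. GARS1 and KARS1 are exceptions, since a single gene supplies the enzyme of both places for glycine and for lysine. Several cytosolic enzymes sit together in the multisynthetase complex, and many cytosolic genes are known targets of ATF4, a transcription factor that acts in the amino acid response. TSC2, together with TSC1, restrains the growth kinase mTORC1, which is itself an activator of ATF4.

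Total RNA was measured on 6 arrays, with 2 arrays in each of 3 groups. The shTSC2 cells carried a short hairpin RNA against TSC2 delivered by lentivirus. The shTSC2-adapted cells were derived from the knockdown cells by an adaptation that the labels do not describe. The control cells are labelled only as control, and whether they received a virus is not stated. Cells of every group were cultured at 37 °C and 5% CO2 in a high-glucose medium that contained 10% serum. They had spent 24 h at 1% oxygen when RNA was collected. The labels do not say whether arrays of a group came from separate cultures, so the p-values cover the spread between these arrays alone, and that spread may be technical. Effects of the virus, the hairpin and lower TSC2 cannot be told apart. In RNA from whole cultures, a smaller share of cells expressing a gene and less of its RNA per cell cannot be told apart either.

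Levels are log2 intensities, and changes are differences of group means on that scale with their standard error (SE, n = 2 arrays per group). A gene was called changed where the adjusted p of limma over all 18417 genes, two-sided, was below 0.05. TSC2 stood at 6.67 and 6.55 in shTSC2 cells and at 6.54 and 6.48 in shTSC2-adapted cells, against 7.52 and 7.59 in control cells. Its level was thus 51.9% of control in shTSC2 (95% interval 44.4% to 60.8%, adjusted p = 0.00102). The epithelial keratins KRT8 and KRT18 lay between 11.22 and 11.50 on every array. The leukocyte marker PTPRC and the fibroblast markers DCN and LUM stayed between 3.34 and 3.60, but CD68 lay between 7.70 and 8.41 and COL1A1 between 6.63 and 6.88. Of 4 leukocyte markers CD68 rose in shTSC2 against control (change 0.62, adjusted p = 0.00674), and 0 of 5 fibroblast and 0 of 4 endothelial markers passed. The mean of the leukocyte markers was 5.73 and 5.74 in shTSC2 cells, 5.56 and 5.55 in shTSC2-adapted cells, and 5.48 and 5.48 in control cells. The mean of the fibroblast markers was 5.19 and 5.21 in shTSC2 cells, 5.25 and 5.17 in shTSC2-adapted cells, and 5.07 and 5.09 in control cells. The endothelial markers PECAM1, CDH5, VWF and KDR lay between 4.05 and 4.95. The prostate genes KLK2 and KLK3 lay between 5.01 and 5.60, below the median gene at 6.49. Of the 5 epithelial markers EPCAM and KRT19 fell in shTSC2 against control (changes -1.285 and -1.38), and EPCAM, KRT19 and CDH1 rose in shTSC2-adapted against shTSC2 (changes 1.645, 1.55 and 1.54), while KRT8 and KRT18 passed in no comparison. The mean of all 5 was 8.32 and 8.51 in shTSC2 cells, 9.46 and 9.24 in shTSC2-adapted cells, and 8.95 and 8.82 in control cells. The part of these marker differences in the results on synthetases was not tested.

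Of the synthetase genes, 30 matched a promoter window in the table used here, taken from RefSeq (GRCh38.p14). A window spans 250 bases before to 50 after the gene start. The core of the amino acid response element bound by ATF4 and its partners was searched as TGATGNAA on both strands. It was found in 3.62% of the 35116 promoter windows in the table. Among the synthetases it was found in 8 of 39 windows. Counting a gene with a match in any of its windows, it was found in 8 of 30 genes. These were 7 of 16 cytosolic genes and 1 of 14 mitochondrial genes. The stretches are shown because the values of the cytosolic genes with and without this core are given separately for shTSC2 cells. Each is 30 bases on the strand of its gene, with the matched letters in capitals.
AARS1, chr16:70289675-70289704, minus strand: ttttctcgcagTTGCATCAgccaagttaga
CARS1, chr11:3057407-3057436, minus strand: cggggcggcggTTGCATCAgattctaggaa
GARS1, chr7:30594834-30594863, plus strand: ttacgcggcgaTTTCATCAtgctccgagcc
IARS1, chr9:92293692-92293721, minus strand: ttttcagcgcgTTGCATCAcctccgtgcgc
MARS1, chr12:57488053-57488082, plus strand: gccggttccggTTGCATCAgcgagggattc
NARS1, chr18:57621804-57621833, minus strand: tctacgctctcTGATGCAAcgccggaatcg
TARS1, chr5:33440956-33440985, plus strand: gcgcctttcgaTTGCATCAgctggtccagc
YARS2, chr12:32756076-32756105, minus strand: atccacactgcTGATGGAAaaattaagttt
The match lay next to the gene start in CARS1, MARS1, NARS1 and TARS1, with its first base 2 or 4 bases before the start in CARS1 and MARS1 and 15 or 3 bases after it in NARS1 and TARS1. It lay 13 bases before the start in IARS1, 33 in GARS1, 187 in AARS1 and 197 in YARS2. The E-box CACGTG, a palindrome bound by MYC and related factors, was found in 7.26% of all windows and in 5 of 39 synthetase windows. These belonged to 4 of the 30 genes, namely IARS1, CARS2, EARS2 and MARS2. A match describes letters in a window and is not evidence of binding.

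The first comparison asked how the synthetases differed between shTSC2 and control cells. The cytosolic set moved mostly downward, and the mitochondrial set was split between a few large falls and a majority without a call. Of 19 cytosolic genes 9 fell and 4 rose, and of 16 mitochondrial genes 5 fell and 1 rose. Among all genes tested 13.9% were called lower and 6.87% higher, so that the share of mitochondrial genes called higher was near the background. The median change was -0.40 for cytosolic genes and -0.14 for mitochondrial genes, beside 0.03 for all genes. Both sets also differed in level, with cytosolic medians of 9.71 and 9.66 on the control arrays, against mitochondrial medians of 7.31 and 7.235. The part of this level in the difference between the median changes was not tested. Relative to the control mean, the median cytosolic gene stood at -0.33 and -0.31 on the shTSC2 arrays, and the median mitochondrial gene at -0.11 and -0.20. The number of cytosolic genes called lower fell when any array but shTSC2 2 was left out, and fell most without a control array. Leaving out an array also changes the shared estimate of spread. The shTSC2-adapted arrays enter this comparison only through that estimate. The cytosolic minus mitochondrial difference of medians, -0.26 with all arrays, was -0.225 without control 1 and -0.22 without control 2. The 4 cytosolic genes called higher became 1 without control 1 or shTSC2 1 and 0 without control 2, and 3 mitochondrial genes were called lower without control 2.

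SARS1, which charges both serine and selenocysteine tRNA, had the largest change of the set. It stood at 9.03 and 9.44 in shTSC2 cells, 10.76 and 10.53 in shTSC2-adapted cells, and 10.60 and 10.55 in control cells. Both shTSC2 arrays lay below all 4 others. The change against control was -1.34 (SE 0.151, adjusted p = 0.00144), and the remaining level was 39.5% of control (95% interval 30.9% to 50.5%). AARS1, the alanine enzyme, with an editing domain that clears mischarged tRNA, stood at 10.15 and 10.48 in shTSC2 cells, against 11.18 and 11.11 in control cells. It fell by 0.83 (SE 0.134, adjusted p = 0.00517), and the call was lost without either control array. RARS1, the arginine enzyme of the multisynthetase complex, stood at 8.43 and 9.20 in shTSC2 cells, against 9.62 and 9.66 in control cells. The shTSC2 arrays lay below control but far apart from each other. RARS1 fell by 0.825 (SE 0.219, adjusted p = 0.0356), a call that was lost without either control array.

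**Figure D1:**
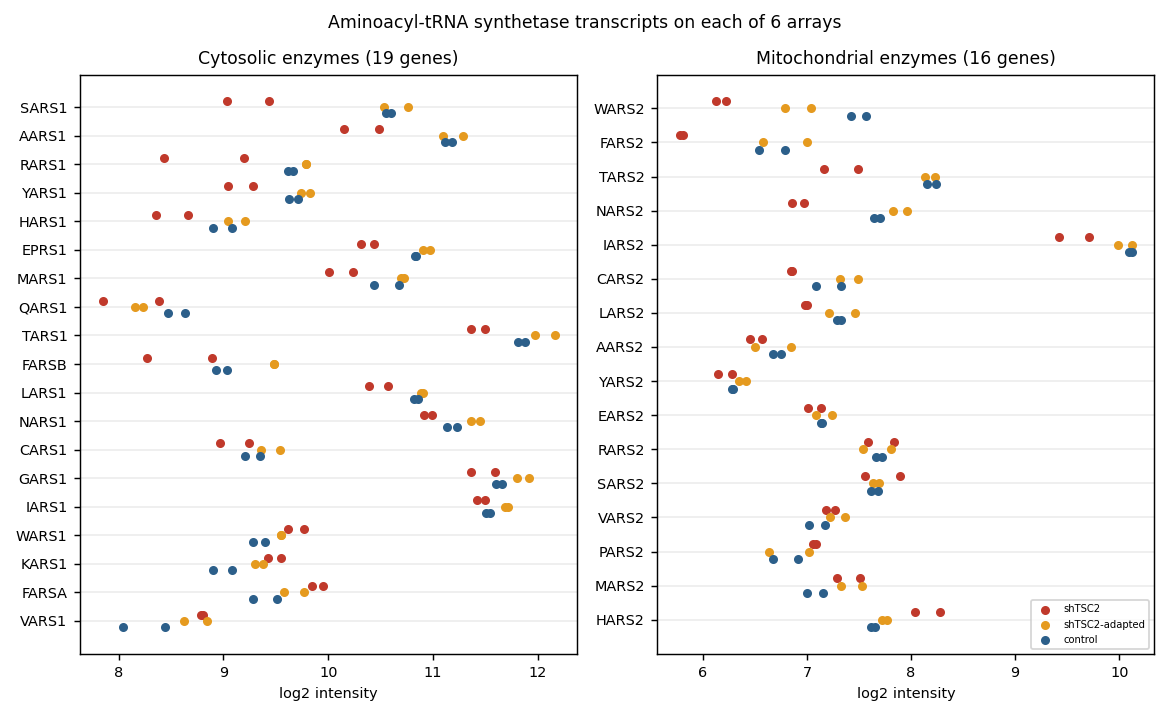
Log2 intensity (x axis) of the 19 cytosolic genes (left panel) and 16 mitochondrial genes (right panel) on each of 6 arrays, ordered by the change in shTSC2 against control. Each point is 1 array, in red for shTSC2, orange for shTSC2-adapted and blue for control. The SARS1 points of shTSC2 lie at 9.03 and 9.44, left of all others in that line, while the HARS2 points of shTSC2 lie at 8.28 and 8.04, right of the others in its line.

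The other 6 cytosolic falls were smaller, from -0.36 to -0.51. YARS1, the tyrosine enzyme, stood at 9.04 and 9.28 in shTSC2 cells, against 9.71 and 9.63 in control cells (change -0.51, adjusted p = 0.0178). EPRS1, a fused enzyme for glutamate and proline that is part of the multisynthetase complex, stood at 10.31 and 10.44 in shTSC2 cells, against 10.84 and 10.83 in control cells (change -0.46, adjusted p = 0.0146). Groups did not overlap in either gene, which is no separate support for calls made on the same arrays. HARS1 (histidine), MARS1 (methionine), TARS1 (threonine) and LARS1 (leucine, and in mammals a reported leucine sensor of mTORC1) also fell, with changes of -0.48, -0.435, -0.415 and -0.36. Their adjusted p-values lay between 0.0344 and 0.0453, close to the threshold. HARS1, LARS1 and MARS1 were no longer called after quantile normalization, nor after median centring. RARS1 lost its call after quantile normalization and TARS1 after median centring.

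Rises were seen in VARS1, FARSA, KARS1 and WARS1. VARS1, the valine enzyme, which associates with elongation factor 1, stood at 8.81 and 8.79 in shTSC2 cells, against 8.44 and 8.04 in control cells (change 0.56, SE 0.148, adjusted p = 0.0351). The 2 VARS1 probe sets gave the same change, so the other set is no separate check. KARS1, the lysine enzyme of cytosol and mitochondria, stood at 9.43 and 9.55 in shTSC2 cells, against 9.08 and 8.90 in control cells (change 0.50, SE 0.107, adjusted p = 0.0157). WARS1, the tryptophan enzyme, known to be induced by interferon, stood at 9.77 and 9.62 in shTSC2 cells, against 9.40 and 9.28 in control cells (change 0.355, adjusted p = 0.0460). All 3 genes were higher on both shTSC2 arrays than on both control arrays, which is no separate support for calls made on the same arrays. WARS1 lost its call in a fit of only the 4 arrays compared. With a block for arrays of the same replicate number, WARS1 and VARS1 both lost their calls. KARS1 kept its call in both of these fits, but lost it without either control array.

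FARSA and FARSB encode the catalytic and the tRNA-binding subunits of a single enzyme, cytosolic phenylalanyl-tRNA synthetase, and their changes had opposite signs. FARSA stood at 9.95 and 9.85 in shTSC2 cells, against 9.51 and 9.28 in control cells, and rose by 0.505 (SE 0.120, adjusted p = 0.0239). FARSB stood at 8.27 and 8.89 in shTSC2 cells, against 9.03 and 8.93 in control cells, a change of -0.40 that did not pass (SE 0.186, adjusted p = 0.181). The difference between the changes of these subunits was not tested. Of the remaining cytosolic genes, CARS1 (cysteine), GARS1 (glycine), IARS1 (isoleucine), NARS1 (asparagine) and QARS1 (glutamine) did not pass. Their changes lay between -0.43 (QARS1, adjusted p = 0.127) and -0.065 (IARS1, adjusted p = 0.672).

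Among the mitochondrial enzymes WARS2, for tryptophan, changed most. It stood at 6.22 and 6.13 in shTSC2 cells, 7.04 and 6.79 in shTSC2-adapted cells, and 7.57 and 7.42 in control cells. The 3 groups did not overlap. The change of shTSC2 against control was -1.32 (SE 0.119, adjusted p = 0.000726), and the remaining level was 40.1% of control (95% interval 33.0% to 48.6%). TARS2, for threonine, stood at 7.49 and 7.16 in shTSC2 cells, against 8.24 and 8.15 in control cells (change -0.87, SE 0.128, adjusted p = 0.00361). FARS2, the single-chain phenylalanine enzyme, stood at 5.81 and 5.78 in shTSC2 cells, against 6.54 and 6.79 in control cells (change -0.87, SE 0.155, adjusted p = 0.00777). Its level lay near the median gene, and the call was lost without control 2. NARS2, for asparagine, stood at 6.86 and 6.97 in shTSC2 cells, against 7.70 and 7.64 in control cells (change -0.755, SE 0.100, adjusted p = 0.00246). IARS2, for isoleucine, stood at 9.71 and 9.42 in shTSC2 cells, against 10.12 and 10.09 in control cells (change -0.54, adjusted p = 0.0190), and lost its call without either control array. In all 5 genes the shTSC2 arrays lay below both control arrays. The genes were grouped by their calls on the same arrays, so this is no separate support. The share of all genes lying so was not counted.

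HARS2, the mitochondrial histidine enzyme, was the 1 mitochondrial gene that rose. It stood at 8.28 and 8.04 in shTSC2 cells, against 7.65 and 7.61 in control cells (change 0.53, SE 0.109, adjusted p = 0.0138), a call lost without either control array. HARS2 lies head to head with HARS1, whose change was -0.48 (8.66 and 8.36 in shTSC2 cells, against 9.08 and 8.90 in control cells). The 84 bases between their starts in RefSeq, with a GC content of 59.5%, are shown because both genes are transcribed outward from them.
HARS1 and HARS2, chr5:140691371-140691454, plus strand: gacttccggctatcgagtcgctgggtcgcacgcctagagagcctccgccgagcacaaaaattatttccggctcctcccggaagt
Neither TGATGNAA nor CACGTG was found in this stretch (0 matches). The other 10 mitochondrial genes did not pass. Besides CARS2, MARS2, SARS2 and EARS2 (glutamate), they were AARS2 (alanine), LARS2 (leucine), PARS2 (proline), RARS2 (arginine), VARS2 (valine) and YARS2 (tyrosine). Their changes lay between -0.355 (CARS2, cysteine, adjusted p = 0.0725) and 0.325 (MARS2, methionine, adjusted p = 0.111). In SARS2, the mitochondrial serine enzyme, the groups overlapped, with 7.56 and 7.89 in shTSC2 cells, against 7.68 and 7.61 in control cells.

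**Figure D2:**
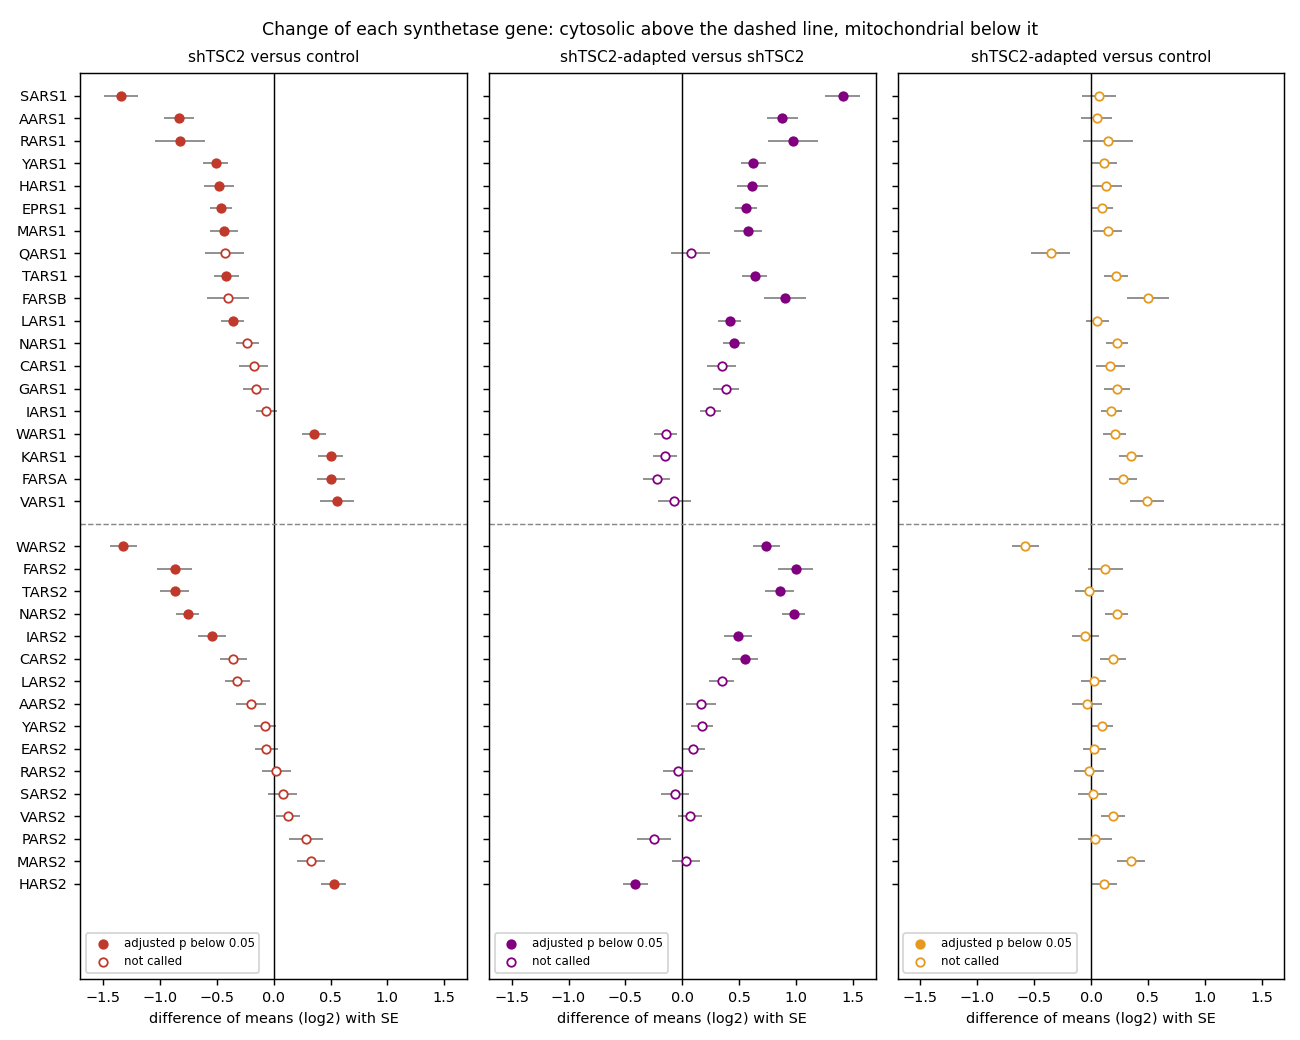
Change of each gene (x axis, difference of group means in log2, bars show the SE) in shTSC2 against control (left), shTSC2-adapted against shTSC2 (middle) and shTSC2-adapted against control (right). Filled points have an adjusted p below 0.05, and cytosolic genes stand above the dashed line. SARS1 at -1.34 and WARS2 at -1.32 lead the left panel, and no point is filled in the right panel.

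Both enzymes of an amino acid were set side by side in 15 pairs over 14 amino acids. EPRS1, which charges both glutamate and proline, was left out of these pairs, and so were EARS2 and PARS2. The change of EPRS1 (-0.46) lay below those of EARS2 (-0.065) and PARS2 (0.285), so including them would add pairs with the cytosolic gene below. Among the 15 pairs, the change of the cytosolic gene was below that of the mitochondrial gene in 7 and above it in 8. The median difference was 0.18 without the EPRS1 pairs. The pairs therefore spread both ways. The widest differences were -1.42 for serine, where SARS1 fell and SARS2 stood at 0.08, and 1.675 for tryptophan, where WARS2 fell and WARS1 rose. FARSA and FARS2 differed by 1.375, HARS1 and HARS2 by -1.01, and RARS1 and RARS2 by -0.85. Leucine was the most even pair, with -0.36 for LARS1 and -0.32 for LARS2. These differences are between changes measured by different probe sets and were not tested.

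**Figure D3:**
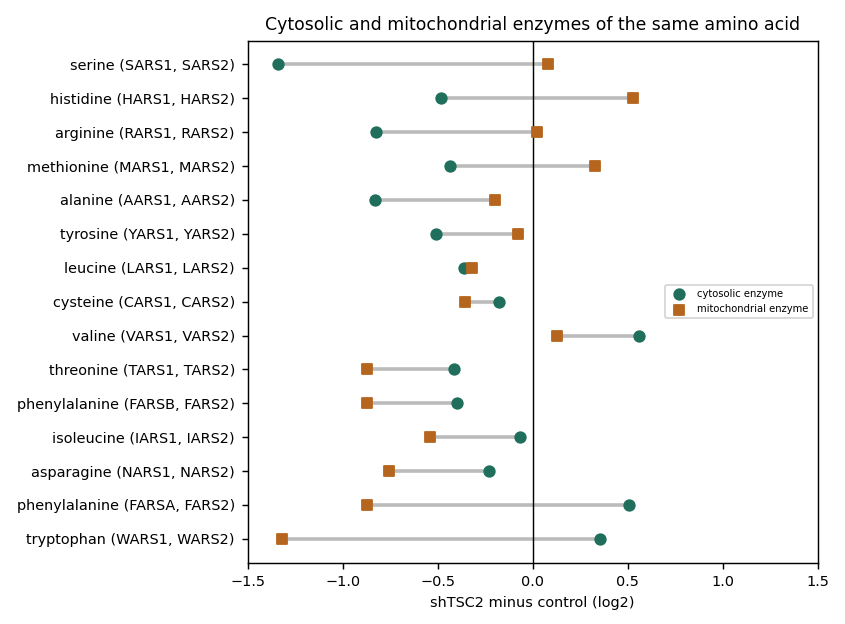
Change in shTSC2 against control (x axis, log2) of the cytosolic enzyme (green circle) and the mitochondrial enzyme (brown square) of the same amino acid, joined by a grey line. Serine at the top has -1.34 for SARS1 and 0.08 for SARS2, and tryptophan at the bottom has 0.355 for WARS1 and -1.32 for WARS2.

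The cytosolic genes were also described by complex, structural class and known regulation. Their counts are read beside the 13.9% of all genes called lower and 6.87% called higher. Of the 7 multisynthetase complex genes 4 fell and 1 rose, with a median of -0.43. Of the 12 outside it 5 fell and 3 rose, with a median of -0.315. AIMP1, a scaffold protein of the complex, rose (7.78 and 7.87 in shTSC2 cells, against 7.39 and 7.36 in control cells, change 0.45, adjusted p = 0.0132). The scaffold genes AIMP2 and EEF1E1 were not analysed here. Of the 9 cytosolic genes of structural class I 4 fell and 2 rose, and the same counts held for the 9 of class II, with medians of -0.36 and -0.40. EPRS1, which holds a domain of each class, was left out of this split.

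Of the 12 cytosolic genes known as ATF4 targets 7 fell and 1, WARS1, rose, with a median of -0.39. Counts here, too, stand beside 13.9% of all genes called lower and 6.87% called higher. Of the 7 others 2 fell and 3 rose, and their median was -0.40. The 7 cytosolic genes with the response element core had changes from -0.83 to -0.065 with a median of -0.23 and 3 falls. The 9 with a promoter window but without the core had changes from -1.34 to 0.505, a median of -0.43, 4 falls and 3 rises. LARS1, VARS1 and YARS1 had no promoter window and are in neither group. Their changes were -0.36, 0.56 and -0.51, and all were called. ATF4 itself stood at 9.29 and 9.39 in shTSC2 cells, against 10.61 and 10.58 in control cells, on its brighter probe set (change -1.255, SE 0.0993, adjusted p = 0.000524). Its other probe set gave -0.245 and did not pass in a fit of all named probe sets (adjusted p = 0.312). EIF2AK4, the kinase GCN2 that senses uncharged tRNA, stood at 8.16 and 8.44 in shTSC2 cells, against 8.71 and 8.67 in control cells (change -0.39, adjusted p = 0.125). ASNS, asparagine synthetase and a standard ATF4 target, overlapped between groups, with 9.99 and 10.23 in shTSC2 cells, against 10.30 and 10.17 in control cells (adjusted p = 0.506). Of the 10 genes of uncharged tRNA sensing and the amino acid response 3 fell and 2 rose. CHAC1, an enzyme induced through ATF4, was among those that fell (6.63 and 6.76 in shTSC2 cells, against 8.10 and 7.68 in control cells, change -1.195, adjusted p = 0.00434). The largest rise was that of EIF2S1, the subunit of initiation factor 2 that GCN2 phosphorylates (10.78 and 10.97 in shTSC2 cells, against 10.21 and 10.26 in control cells, change 0.64, adjusted p = 0.00524).

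The steps on either side of charging were covered by 3 short lists, read beside the 13.9% of all genes called lower and 6.87% called higher. Of 5 genes of elongation factor 1, which carries charged tRNA to the ribosome, EEF1A2 fell (9.16 and 8.94 in shTSC2 cells, against 9.68 and 9.57 in control cells, change -0.575, adjusted p = 0.0419) and 0 rose. Of 3 genes for the proofreading of mischarged tRNA, DTD2, which removes D-amino acids and alanine from tRNA, fell by 0.505 (adjusted p = 0.0214) and the pseudogene PRORSD1P rose by 0.40 (adjusted p = 0.0257). Of 4 genes that amidate or formylate mitochondrial tRNA, 1 fell. This was GATB, a subunit of the amidotransferase that makes mitochondrial glutaminyl-tRNA (6.02 and 5.98 in shTSC2 cells, against 6.46 and 6.65 in control cells, change -0.555, adjusted p = 0.00940). EARS2, which supplies the glutamyl-tRNA for that step, overlapped between groups, with 7.13 and 7.01 in shTSC2 cells, against 7.13 and 7.14 in control cells.

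The changes moved with the length of the genes, most clearly in the mitochondrial set. Over 16902 protein-coding genes the Spearman correlation of gene span in the reference with its change in shTSC2 against control was -0.33. Over the 35 synthetases it was -0.47, with -0.78 over the 16 mitochondrial and -0.06 over the 19 cytosolic genes. The genes share the same 6 arrays, and these correlations are descriptions across genes. FARS2 spans 521.65 kb, NARS2 138.90 kb, WARS2 109.46 kb and IARS2 53.91 kb, while HARS2 spans 7.85 kb and MARS2 3.03 kb. TARS2 lay off this order, with a span of 20.18 kb and a change of -0.87. So did LARS2, with 160.83 kb and -0.32, and RARS2, with 76.05 kb and 0.025. With the trend of length over all genes removed, 7 cytosolic genes were called lower, without LARS1 and MARS1, and the 5 mitochondrial genes called lower stayed at 5. WARS2 then stood at -1.17, FARS2 at -0.74 and SARS1 at -1.36, and each still passed. The difference of the medians of both sets moved to -0.12, against -0.26 without the removal.

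**Figure D4:**
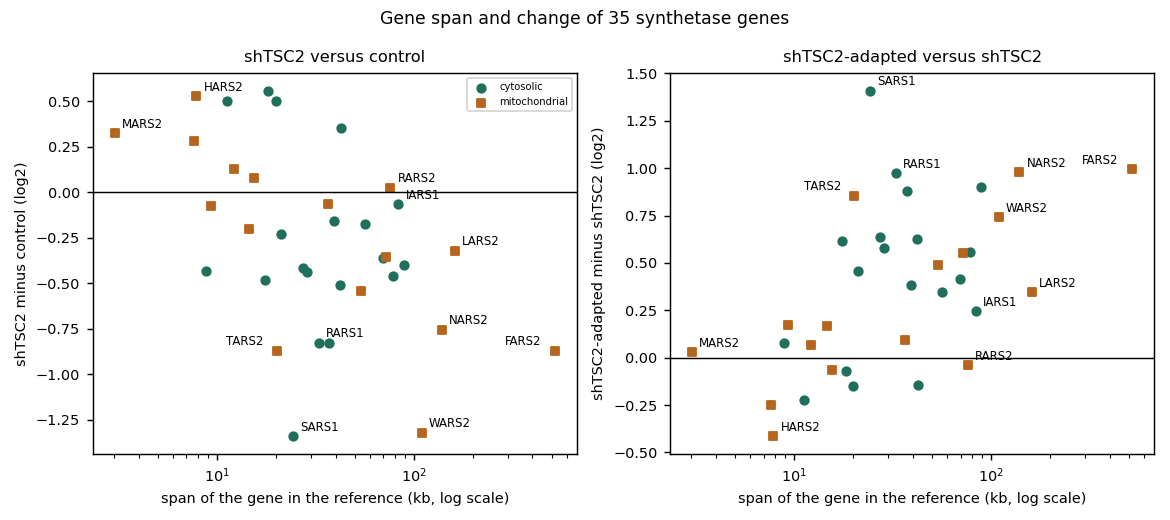
Change (y axis, log2) against gene span in the reference (x axis, kb, log scale) for shTSC2 against control (left) and shTSC2-adapted against shTSC2 (right). Green circles are cytosolic genes and brown squares mitochondrial genes. In the left panel the mitochondrial genes run from MARS2 at 3.03 kb and 0.325 to FARS2 at 521.65 kb and -0.87.

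The second comparison set shTSC2-adapted cells against shTSC2 cells. It shares the shTSC2 arrays with the first, so that a deviation of those arrays would turn both sets of changes in opposite directions. Of 19 cytosolic genes 11 rose and 0 fell, and of 16 mitochondrial genes 6 rose and 1 fell. Among all genes 9.25% were called higher and 3.24% lower. At an unadjusted p below 0.05, limma gave 0 cytosolic genes lower as well. The median change was 0.455 for cytosolic and 0.17 for mitochondrial genes, beside -0.03 for all genes. The number of cytosolic genes called higher fell when any array but shTSC2 2 was left out, and fell most without an shTSC2-adapted array. The mitochondrial number fell most without shTSC2-adapted 1. Leaving out an array also changes the shared estimate of spread. The cytosolic minus mitochondrial difference of medians, 0.29 with all arrays, was 0.15 without shTSC2-adapted 1 and 0.38 without shTSC2-adapted 2.

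SARS1 stood at 10.76 and 10.53 in shTSC2-adapted cells, against 9.03 and 9.44 in shTSC2 cells, and rose by 1.41 (SE 0.151, adjusted p = 0.00284). RARS1 was nearly the same on both shTSC2-adapted arrays (9.79 and 9.79), against 8.43 and 9.20 in shTSC2 cells, and rose by 0.975 (SE 0.219, adjusted p = 0.0290). FARSB, which had not passed in the first comparison, stood at 9.48 and 9.48 in shTSC2-adapted cells, against 8.27 and 8.89 in shTSC2 cells (change 0.90, SE 0.186, adjusted p = 0.0222). RARS1 and FARSB lost their calls in a fit of only the 4 arrays compared. They also lost them without either control array and without either shTSC2-adapted array. In SARS1, RARS1 and FARSB both shTSC2-adapted arrays lay above both shTSC2 arrays. This is no separate support for calls made on the same arrays, and the share of all genes lying so was not counted. AARS1 rose by 0.88 (11.29 and 11.10 in shTSC2-adapted cells, against 10.15 and 10.48 in shTSC2 cells, adjusted p = 0.00772). TARS1, YARS1, HARS1, MARS1, EPRS1, NARS1 and LARS1 rose by 0.635 to 0.415, with adjusted p-values from 0.0116 to 0.0366. NARS1, for asparagine, stood at 11.45 and 11.36 in shTSC2-adapted cells, against 10.91 and 10.99 in shTSC2 cells. Of the 4 cytosolic genes that were higher in shTSC2 than in control, none passed here. Their changes were -0.225 (FARSA, adjusted p = 0.281), -0.15 (KARS1), -0.145 (WARS1) and -0.07 (VARS1).

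Among mitochondrial genes FARS2 stood at 7.00 and 6.58 in shTSC2-adapted cells, against 5.81 and 5.78 in shTSC2 cells (change 0.995, SE 0.155, adjusted p = 0.00828). NARS2 stood at 7.96 and 7.83 in shTSC2-adapted cells, against 6.86 and 6.97 in shTSC2 cells (change 0.98, SE 0.100, adjusted p = 0.00252). TARS2 stood at 8.23 and 8.13 in shTSC2-adapted cells, against 7.49 and 7.16 in shTSC2 cells (change 0.855, adjusted p = 0.00733). Groups did not overlap in these 3 genes, which is no separate support for calls made on the same arrays. WARS2 rose by 0.74 (adjusted p = 0.00925), CARS2 by 0.55 (adjusted p = 0.0242) and IARS2 by 0.49 (adjusted p = 0.0397). CARS2, the cysteine enzyme, stood at 7.32 and 7.49 in shTSC2-adapted cells, against 6.85 and 6.86 in shTSC2 cells. HARS2 fell, with 7.72 and 7.77 in shTSC2-adapted cells, against 8.28 and 8.04 in shTSC2 cells (change -0.415, adjusted p = 0.0493). This call was lost without any array other than shTSC2 2, and under 5 of the other settings tried.

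By subgroup, 4 of 7 complex genes and 7 of 12 cytosolic genes outside the complex rose, where 9.25% of all genes were called higher. Of the 12 known ATF4 targets 8 rose, with a median of 0.51, and of the 7 other cytosolic genes 3 rose, with a median of 0.075. Of the 7 cytosolic genes with the response element core 4 rose, and of the 9 without it 5. ATF4 stood at 10.41 and 10.27 in shTSC2-adapted cells, against 9.29 and 9.39 in shTSC2 cells (change 1.00, adjusted p = 0.00249), while its other probe set gave 0.405 and did not pass (adjusted p = 0.139). CHAC1, a glutathione-degrading enzyme induced through ATF4, had the largest rise of the 10 genes of the amino acid response list, of which 4 rose and 0 fell (8.65 and 8.21 in shTSC2-adapted cells, against 6.63 and 6.76 in shTSC2 cells, change 1.735, adjusted p = 0.00274). ASNS did not pass (change 0.365, adjusted p = 0.0893), nor did EIF2AK4 (0.36, adjusted p = 0.187) or AIMP1 (-0.315, adjusted p = 0.0679). Among the genes next to charging, 1 of 5 genes of elongation factor 1 rose and 0 fell, beside 9.25% of all genes called higher and 3.24% lower. This was EEF1D (change 0.515, adjusted p = 0.0394). Of 4 genes of mitochondrial amidation and formylation 2 rose, QRSL1, the catalytic subunit of the amidotransferase (change 0.665, adjusted p = 0.0408), and GATB (change 0.40, adjusted p = 0.0466). Of 3 proofreading genes DTD2 rose by 0.70 (adjusted p = 0.0105), and PRORSD1P fell by 0.39 (adjusted p = 0.0406). Over protein-coding genes the Spearman correlation of span and change was 0.33 here, with 0.71 over the mitochondrial and 0.24 over the cytosolic synthetases. With the length trend removed, LARS1, HARS2 and IARS2 no longer passed. LARS1 and IARS2 also lost their calls after quantile normalization, and LARS1 after median centring.

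The third comparison set shTSC2-adapted cells against control cells, and shares its control arrays with the first. No synthetase gene passed, at 0 of 19 cytosolic and 0 of 16 mitochondrial genes, where 0.0543% of all genes were called higher and 0.206% lower by limma. At an unadjusted p below 0.05, 3 cytosolic genes were higher and 0 lower, and 1 mitochondrial gene was higher and 1 lower. The cytosolic values nevertheless lay to one side. The difference was positive in 18 of 19 cytosolic genes, with a median of 0.17, and in 11 of 16 mitochondrial genes, with a median of 0.03. Among all 18417 genes it was positive in 9038, with a median of -0.005. The genes share the same arrays, so a deviation of an array could move many of them together. Both shTSC2-adapted arrays lay above both control arrays in 15 of 19 cytosolic and 5 of 16 mitochondrial genes, compared with 21.8% of all genes. They lay below both in 1 cytosolic and 1 mitochondrial gene, compared with 24.1% of all genes. The difference of the medians of both sets was 0.14, and 0.03 without shTSC2-adapted 1.

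The cytosolic gene lying below was QARS1, for glutamine, with 8.23 and 8.16 in shTSC2-adapted cells, against 8.47 and 8.63 in control cells (change -0.355, adjusted p = 0.470). The mitochondrial gene was WARS2, with a change of -0.58 (SE 0.119, adjusted p = 0.102), which puts its level at 66.9% of control. Its 95% interval without adjustment ran from -0.86 to -0.30. VARS1 had the lowest adjusted p of the cytosolic set, with 8.62 and 8.84 in shTSC2-adapted cells, against 8.44 and 8.04 in control cells (change 0.49, adjusted p = 0.223). KARS1 stood at 9.30 and 9.38 in shTSC2-adapted cells, against 9.08 and 8.90 in control cells (change 0.35, adjusted p = 0.227). FARSB stood at 9.48 and 9.48 in shTSC2-adapted cells, against 9.03 and 8.93 in control cells (change 0.50, adjusted p = 0.322). These 3 genes lay higher on both shTSC2-adapted arrays without passing the test. For SARS1 the difference was 0.07 (95% interval -0.28 to 0.42, adjusted p = 0.922), for AARS1 0.05 (-0.26 to 0.36) and for TARS2 -0.015 (-0.31 to 0.28). ATF4 stood at 10.41 and 10.27 in shTSC2-adapted cells, against 10.61 and 10.58 in control cells (change -0.255, adjusted p = 0.348), while its other probe set gave 0.16 (adjusted p = 0.763). AIMP1, ASNS and EIF2AK4 had changes of 0.135, 0.24 and -0.03 without passing.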

How the data were processed

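Total RNA was measured on 6 arrays, 2 per group. The values deposited by the authors are linear intensities of probe sets, normalized by RMA per the submitters' processing notes. The sources used here do not give its version. RMA makes the arrays alike, which would partly take out a change common to most genes. Every deposited intensity had a log2 within 6.99e-10 of a number with 2 decimals, and log2 values were analysed. Arrays have no read depth, and their number limits the precision. Median intensities were 58.1 to 63.1, and Pearson correlations within groups 0.990 to 0.997.

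Of 33297 probe sets 19460 had 1 gene symbol in the platform annotation, 1754 had several and 12083 are unnamed here. The set with the highest mean was kept per gene, which left 18417 genes. VARS1 and VARS2 had 2 sets each, and the other VARS2 set gave 0.155 in shTSC2 against control, beside 0.13. A linear model over all 6 arrays (limma 3.58.1 in R 4.3.3, 3 residual degrees of freedom) gave two-sided p-values, adjusted by Benjamini-Hochberg over all genes. It was tested on simulated data. Gene spans, promoters and sequences came from RefSeq (GRCh38.p14).

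Members and lists were chosen with earlier results of these data known. Named were all members, TSC2, the largest called rise and fall of each list in each comparison, and ATF4, EIF2AK4, ASNS, AIMP1, AIMP2 and EEF1E1. Alternatives are given in the closing section.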

Additional observations from a re-analysis of the deposited data

How the results depend on the processing

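No call of a synthetase gene reversed under the 14 alternatives. Of 19 calls in shTSC2 against control, 4 held under all of them (SARS1, NARS2, TARS2 and WARS2), and 12 under all planned ones that kept every array. Of 18 calls in shTSC2-adapted against shTSC2, SARS1, FARS2 and NARS2 held under all, and 10 under planned ones with every array. The 9 cytosolic genes lower in shTSC2 than in control became 5 after quantile normalization, median centring, a fit of only the 4 arrays compared or a replicate block, and 1 to 9 with 1 array left out. The 4 cytosolic genes higher became 2 with the replicate block and 0 to 3 with an array left out. The mitochondrial counts became 3 to 5 lower and 0 to 1 higher with an array left out, and 2 higher after quantile normalization. The cytosolic minus mitochondrial median, -0.26, became -0.19 after quantile normalization, -0.12 with the length trend removed, and -0.26 to -0.11 with an array left out. In shTSC2-adapted against shTSC2, the 11 cytosolic genes higher became 5 with only the 4 arrays compared and 1 to 11 with an array left out. The 6 mitochondrial genes higher became 2 to 5. The 1 mitochondrial gene lower became 0 with every named probe set, only the 4 arrays, the replicate block, the length trend removed or the crossed replicate block, and 0 to 1 with an array left out. The difference of medians, 0.29, became 0.15 to 0.39. In shTSC2-adapted against control, the counts stayed at 0 under all alternatives, and the difference of medians, 0.14, became 0.0275 to 0.213. The causes were not tested.

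Arrays of the same number are not said in the labels to share a culture or a batch, and whether they did is not known. Their deviations correlated at -0.10 (shTSC2 and control), -0.19 (shTSC2-adapted and control) and 0.21 (shTSC2-adapted and shTSC2). The replicate block gave 3536, 1 and 2064 calls over all genes for shTSC2 against control, shTSC2-adapted against control and shTSC2-adapted against shTSC2, beside 3833, 48 and 2300 without it. The crossed replicate block, chosen after seeing the data, gave 4212, 148 and 2732. Leaving out genes below the median level left FARS2 and YARS2 untested. Where a group was left with 1 array, that array was assumed to vary like the other groups.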

Other observations

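Genes of the machinery around the synthetases changed in both directions in shTSC2 against control, where 13.9% of all genes were called lower and 6.87% higher. Of 74 mitochondrial ribosomal protein genes 7 fell and 13 rose (median 0.06). MRPS18C, a small-subunit protein, rose most (6.84 and 7.29 in shTSC2 cells, against 6.05 and 6.22 in control cells, change 0.93, adjusted p = 0.00703). MRPL58, a ribosome-bound peptidyl-tRNA hydrolase, fell most (7.16 and 7.80 in shTSC2 cells, against 8.27 and 8.20 in control cells, change -0.755, adjusted p = 0.0291). Of 10 mitochondrial translation factors 3 fell and 2 rose, led by MTRFR (-0.585, adjusted p = 0.00677), which rescues stalled mitochondrial ribosomes, and the release factor MTRF1L (0.705, adjusted p = 0.00793). Of 22 genes of tRNA maturation and export 2 fell and 4 rose. TRNT1, which adds the CCA end to which amino acids are joined, stood at 7.66 and 7.25 in shTSC2 cells, against 6.45 and 6.49 in control cells (change 0.985, adjusted p = 0.00417), and ELAC1, which repairs tRNA ends, changed by -0.675 (adjusted p = 0.0147). Of 20 genes of the RNA polymerase III machinery, which transcribes tRNA genes, 4 fell and 6 rose. The polymerase subunit POLR3G stood at 8.21 and 7.82 in shTSC2 cells, against 6.89 and 7.02 in control cells (change 1.06, adjusted p = 0.00235), and GTF3C2, a subunit of TFIIIC, at 7.51 and 7.67 in shTSC2 cells, against 8.55 and 8.61 in control cells (change -0.99, adjusted p = 0.000983).

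The selenocysteine pathway starts from serine joined to its tRNA by SARS1. Of its 6 genes 3 fell and 0 rose (median -0.51). EEFSEC, the elongation factor of selenocysteine, changed most among those that fell (7.04 and 6.60 in shTSC2 cells, against 7.37 and 7.45 in control cells, change -0.59, adjusted p = 0.0282). In shTSC2-adapted against shTSC2, where 9.25% of all genes were called higher and 3.24% lower, 1 of the 6 rose, the selenophosphate synthetase homolog SEPHS1 (9.58 and 9.70 in shTSC2-adapted cells, against 9.16 and 9.26 in shTSC2 cells, change 0.43, adjusted p = 0.0323). In that comparison 7 mitochondrial ribosomal protein genes rose and 3 fell, led by MRPL58 (0.995, adjusted p = 0.0167) and MRPS18C (-0.745, adjusted p = 0.0258). Of the mitochondrial translation factors TSFM rose by 0.47 (adjusted p = 0.0245) and MTRF1L fell by 0.685 (adjusted p = 0.0149). Of the tRNA maturation genes 5 rose and 2 fell, with POP1, a subunit of RNase P, at 0.96 (adjusted p = 0.0429) and TRNT1 at -0.775 (adjusted p = 0.0176). GTF3C2 was 1 of 2 genes of the RNA polymerase III list that rose (change 1.105, adjusted p = 0.00188). In shTSC2-adapted against control, 0 genes of these 5 lists were called by limma.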
